A study of Bos taurus with 16 samples.

Results

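Among the 27393 loci counted in bovine oocytes and pre-implantation embryos that developed in vivo, 24820 carried a gene name, and 28 of these named loci, or 0.113%, were steady from the MII oocyte to the blastocyst. A locus was taken as steady when its value was 100 or more in all 16 samples and its highest value was no more than 5 times its lowest. The members were thus chosen by the measured values of all samples, so the levels and ratios given here describe the 28 loci and no test was made of their steadiness. They included the mRNAs of the RNA-binding proteins HNRPDL, HNRNPU and SRSF9, the histone variant H3F3B, the cell cycle regulator CCNA2 and the endosomal GTPase RAB7A. The calcium pump ATP2A2 was steady at 1 locus, while another locus of this name ranged 9.20-fold. Counts and medians cover all 28 loci, and 25 of them are described by name.

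Each sample was a single oocyte or a single embryo of Bos taurus, with 2 samples at each of 8 stages: MII oocytes, embryos of 2, 4, 8 and 16 cells (2C, 4C, 8C and 16C), early morulae (EM), compact morulae (CM) and blastocysts (BL). The oocytes had matured in vivo, and the sources used here name no treatment of the samples and no engineered change. Total RNA of every sample was amplified in 2 rounds before a SOLiD library was made, since 1 oocyte holds too little RNA for a library. The embryonic genome is activated (EGA) between the 4C and 8C stages in these embryos, so the 6 samples up to 4C are named before EGA and the 10 samples from 8C on after EGA.

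A mature oocyte does not transcribe its genome, and it carries a store of mRNAs that the embryo uses through its first cleavages. This store is translated, deadenylated and degraded in steps, while the embryo's own transcripts appear at EGA and take over. A steady value of an mRNA can therefore be held by stored molecules, by new transcripts or by the succession of both, and a single time point does not separate them. Values of a whole embryo also cannot tell a change in the number of cells from a change in the RNA of each cell. They are scaled within each sample and do not measure the amount of RNA in an embryo. A steady value is thus steady relative to the other transcripts of the sample, and not a steady amount of mRNA.

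The values are read counts per locus that the authors divided by a size factor for each sample, and they are not divided by transcript length, so levels of different genes were not ranked against each other as amounts of mRNA. Between 607672 and 3379426 reads were recovered per sample, with a median of 1347534.5, and the 28 loci together took from 1.54% of them in MII 1 to 3.18% in EM 1. The least covered locus and sample held 70 reads (RAB10 in 8C 1), and the lowest read number of each locus had a median of 159.5. Oocyte markers such as ZP3 and GDF9 summed to between 16618 and 26452 in MII oocytes and to between 8.12 and 1982 after EGA. Blastocyst markers summed to between 2055 and 2084 in BL and to between 212 and 1369 in the other samples. MII oocytes were at 994 and 1369, so this sum is not particular to blastocysts. Of 11 loci of this list tested by limma, 6 rose and 1 fell after EGA and 4 were not called. Over all 6910 loci tested, 36.9% rose and 29.9% fell. Of the 12 cumulus and granulosa cell genes listed, INHA and AMH were at 0 in all samples, and STAR was at 406 or more in every sample. HAS2, which makes the hyaluronan of the expanding cumulus, was at 98.1 to 367 before EGA and at 0 to 21.8 after it. LHCGR of the same list went the other way, at 0 to 8.12 before EGA and 1.80 to 69.7 after it. Without STAR this list summed to between 115 and 404 before EGA and between 10.05 and 106 after it, and its part in the values of the steady loci was not tested. Libraries did not always resemble their own stage most. Over the 4412 loci above 0 in all samples, 2C 1 correlated most with MII 2 (r = 0.846) and 2C 2 with 4C 2 (r = 0.920), against r = 0.801 between the 2C samples. 8C 1 correlated most with 16C 1 (r = 0.870) and 8C 2 with CM 2 (r = 0.793), against r = 0.783 between the 8C samples. CM 2 was closest to EM 1 (r = 0.897), against r = 0.882 with CM 1.

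Few of the well-expressed named loci were steady. At 100 or more in all 16 samples there were 198 named loci, of which 28 (14.1%) stayed within the ratio of 5 and 170 exceeded it. The ratio of the highest to the lowest value had a median of 11.03 over the 198 loci and reached 214. Within the 28 loci it ran from 2.54 for HNRPDL to 4.93 for LOC100851729, with a median of 4.23. The coefficient of variation over the 16 samples lay between 28.9% and 53.3%, with a median of 41.7%. Means over the 16 samples spanned 216 for TYMS to 8203 for LOC100296593.

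**Figure D1:**
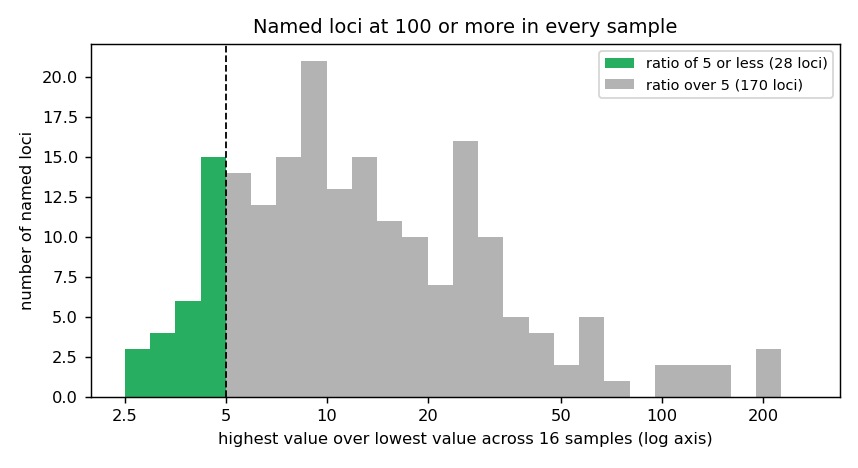
Number of named loci (vertical axis) by the ratio of the highest to the lowest of 16 deposited values (horizontal axis, logarithmic), for the 198 named loci at 100 or more in every sample. The 28 loci with a ratio of 5 or less are green and end the lower tail of a distribution whose median is 11.03.

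The limit of 5 cut through a continuous range of ratios. Just inside it were NSUN5 (4.78), CCNA2 (4.89) and LOC100851729 (4.93). Just outside were a second locus named SNAP29 (5.13), EIF5 (5.22), LPIN2 (5.32) and TOMM22 (5.32). For 10 of the 28 loci the 95% interval of the ratio from read counting alone (conditional exact binomial, counting error only) reached past 5, and that of CCNA2 ran from 3.97 to 6.07.

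Among the RNA-binding proteins of the nucleus, HNRPDL and HNRNPU had the lowest ratios of all 28 loci. HNRPDL, the heterogeneous nuclear ribonucleoprotein D-like protein that RefSeq lists as HNRNPDL, takes part in the processing and export of mRNA. Its values were 159.7 and 158 in MII oocytes, 173 and 245 at 2C, 303 and 201 at 4C, 207 and 307 at 8C, 233 and 378 at 16C, 352 and 402 in EM, 281 and 356 in CM and 272 and 298 in BL. Both MII oocytes lay at the low end and early morulae at the high end, and the 6 samples before EGA (158 to 303 with a median of 187) overlapped the 10 samples after it (207 to 402 with a median of 303). HNRNPU, a nuclear protein that binds both RNA and chromatin, measured 263 and 209.5 in MII oocytes, 234 and 208 at 2C, 296 and 172 at 4C, 364 and 209 at 8C, 357 and 485 at 16C, 416 and 499.7 in EM, 299 and 433 in CM and 317 and 246 in BL. Its stage means ran from 221 ± 18.8 in 2C to 458 ± 59.3 in EM (mean ± SD, n = 2 here and for all stage means). The third, the serine/arginine-rich splicing factor SRSF9, went the other way. SRSF9 values were 1446 and 2344 in MII oocytes, 1149 and 1343 at 2C, 1381 and 1667 at 4C, 999.9 and 1254 at 8C, 959 and 775 at 16C, 594 and 754 in EM, 781 and 553 in CM and 1101 and 748 in BL. MII 2 stood highest and CM 2 lowest, and the samples before EGA (1149 to 2344 with a median of 1414) overlapped those after it (553 to 1254 with a median of 778) only between 1149 and 1254. Of the wider family of splicing factors and hnRNP proteins, 129 named loci in all, 5 were at 100 or more everywhere and HNRNPU and SRSF9 were the steady ones, the name HNRPDL being spelled outside the search pattern. Of all named loci at 100 or more, 14.1% were steady, and 5 loci are too few to read a share from.

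Several steady transcripts encode proteins that act on mRNA translation or on the ribosome. PABPC4, a cytoplasmic poly(A)-binding protein, measured 237 and 318 in MII oocytes, 135 and 144 at 2C, 146 and 162 at 4C, 274 and 236 at 8C, 169.8 and 218 at 16C, 356 and 272 in EM, 432 and 421 in CM and 127 and 158 in BL. Its replicates differed by at most 1.34-fold, the closest agreement of the 28 loci, while its stage means differed by up to 3.06-fold, with CM high (427 ± 7.73) and 2C low (139 ± 6.81).

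EIF2AK4, the GCN2 kinase that phosphorylates the initiation factor eIF2 when amino acids are short, ran from 931 to 2065 with a median of 1146 before EGA and from 694 to 2565 with a median of 1420.3 after it. Its highest stage mean was 1886 ± 852 at 16C, where the 2 embryos measured 2489 and 1284, and its lowest 728 ± 48.0 in BL. NSA2, which acts in the assembly of the large ribosomal subunit, had the widest range of stage means of the 28 loci (4.34-fold), from 1063 ± 127 in MII oocytes to 245 ± 1.07 in BL. The samples of NSA2 before EGA (366 to 1153 with a median of 706) and after it (244 to 925 with a median of 377) overlapped. NSUN5 encodes a methyltransferase of a cytosine in the large-subunit rRNA. Its values were 127 to 519.7 with a median of 241 before and 137 to 607 with a median of 345 after EGA, with both 8C embryos high (578 and 607) and both blastocysts low (137 and 187). The list of translation initiation and elongation factors gave 72 named loci, of which 10 were at 100 or more in all samples. EIF2AK4 and PABPC4 were steady, by the roles above a kinase of an initiation factor and a poly(A)-binding protein. Of all named loci at 100 or more, 14.1% were steady. The ratios of the other 8 ran from 5.22 for EIF5 to 60.1 for EIF3A.

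**Figure D2:**
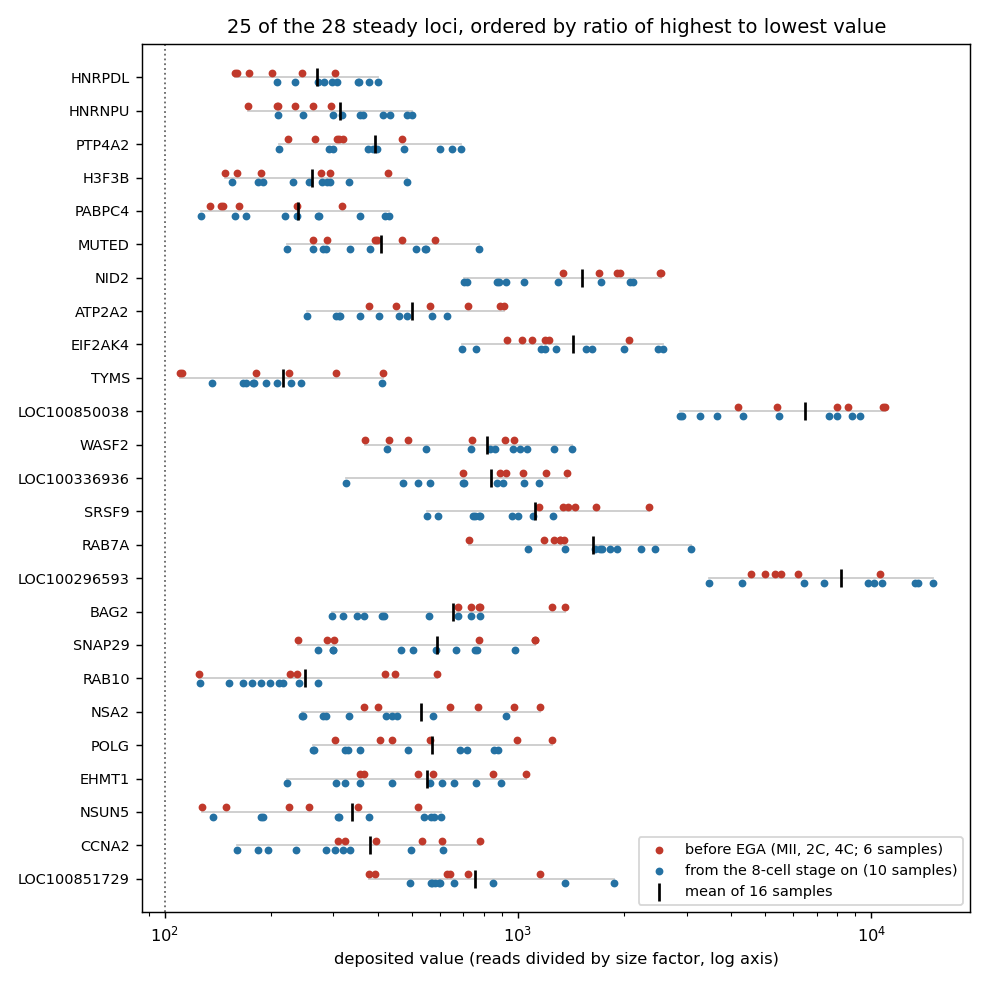
Deposited values (horizontal axis, reads divided by the size factor of the sample, logarithmic) of 25 of the 28 steady loci, 1 line of points for each locus, ordered by ratio. Red points are the 6 samples before EGA, blue points the 10 samples from 8C on, the black tick is the mean of 16 and the dotted line marks 100; the red and blue points overlap at every locus drawn.

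Histones and enzymes that work on DNA or chromatin made up another group. H3F3B is 1 of the genes of the replication-independent histone variant H3.3, which is laid down in chromatin outside DNA replication. H3F3B values were 427 and 277 in MII oocytes, 294 and 161 at 2C, 148 and 188 at 4C, 231 and 256 at 8C, 189 and 293 at 16C, 332 and 486 in EM, 287 and 278 in CM and 184 and 155 in BL. EM 2 and MII 1 were the highest and the 4C and BL samples were among the lowest. H3F3B was not found under this symbol in the gene table used, and its role is given from its name. H3F3A, the other gene of H3.3, ranged from 11.9 to 167 (14.03-fold) and rose after EGA by a log2 difference of 2.09 (SE 0.36, limma adjusted p = 3.43e-05). How reads shared by near-identical copies of these genes were counted is not given in the sources used here, so the values of both are uncertain. EHMT1 encodes a methyltransferase of histone H3 lysine 9. It measured 519.7 and 367 in MII oocytes, 1054 and 357 at 2C, 573 and 851 at 4C, 357 and 221 at 8C, 659 and 439.9 at 16C, 306 and 324 in EM, 611 and 563 in CM and 759 and 894 in BL. The replicates of EHMT1 at 2C differed by 2.96-fold, more than its stage means did at their extremes (2.86-fold). In the list of histone and DNA modifiers, which covers 39 loci, H3F3B and SETDB1 were at 100 or more throughout, and SETDB1 ranged 21.2-fold. EHMT1 was not in that list.

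TYMS, the thymidylate synthase that supplies DNA precursors, had the lowest mean of the group. It read 224 and 415 in MII oocytes, 305 and 181 at 2C, 112 and 110.5 at 4C, 193 and 178 at 8C, 208 and 136 at 16C, 169 and 166 in EM, 178 and 228 in CM and 412 and 242 in BL. TYMS was lowest in both 4C embryos and high in MII 2 and BL 1. POLG, the catalytic subunit of the mitochondrial DNA polymerase, fell within 304 to 1244 with a median of 501 before and 262 to 877 with a median of 423 after EGA, with both MII oocytes high (1244 and 991).

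CCNA2, cyclin A2, drives S phase and entry into mitosis. The values of CCNA2 were 782 and 535 in MII oocytes, 324 and 610.2 at 2C, 396 and 309 at 4C, 184 and 235 at 8C, 320.0 and 335 at 16C, 496 and 303 in EM, 286 and 613 in CM and 196 and 160.0 in BL. Its highest value was in MII 1 and its lowest in BL 2, and both 8C embryos and both blastocysts were low. It was the only steady locus, and the only locus at 100 or more throughout, among 74 loci of cyclins and the anaphase promoting complex. Of all named loci 0.113% were steady, so nothing is read from this. Of the 47 tested in that family, 9 rose and 15 fell after EGA by limma, where 36.9% of all 6910 loci tested rose and 29.9% fell. Scaled to total reads 15 rose and 8 fell, beside 2871 and 1593 of the 6910 loci.

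Proteins of vesicle traffic were represented by RAB7A, RAB10, SNAP29 and MUTED. RAB7A, the GTPase of late endosomes and lysosomes, measured 1311 and 729 in MII oocytes, 1262 and 1183 at 2C, 1311 and 1345 at 4C, 1912 and 1648 at 8C, 2445 and 1357 at 16C, 1822 and 1068 in EM, 1723 and 2232 in CM and 3097 and 1708 in BL. It had the largest upward difference in mean log2 value of the 28 loci (0.65), with MII 2 lowest and BL 1 highest. RAB10, a GTPase of exocytic and recycling vesicles, measured 226 and 236 in MII oocytes, 125 and 590.1 at 2C, 419.7 and 449 at 4C, 126 and 271 at 8C, 187 and 199 at 16C, 216 and 239 in EM, 176 and 211 in CM and 166 and 152 in BL. Both the lowest and the highest value of RAB10 came from the 2C stage, the only such case among the 28, and its range was thus that between 2 embryos of the same stage. SNAP29, a SNARE protein of autophagosome and endosome fusion, was high in both MII oocytes (1115 and 1120.0) and low in both 4C embryos (238 and 302), and it ranged over 238 to 1120.0 with a median of 539.6 before and 272 to 978 with a median of 546 after EGA. MUTED, listed by RefSeq as BLOC1S5 and a subunit of a complex that forms lysosome-related organelles, had the narrowest range of stage means (1.92-fold). Its samples ranged over 262 to 583 with a median of 395 before and 222 to 777 with a median of 358 after EGA, and the 2 embryos at 16C differed by 2.78-fold (777 and 279.8). In a list of 285 loci of vesicle traffic, RAB7A and RAB10 were steady, SNAP29 and MUTED not being in that list. Of all named loci 0.113% were steady. Of the 173 tested in the list, 50 rose and 51 fell after EGA by limma, beside 36.9% and 29.9% of all loci. On total reads 62 rose and 33 fell, beside 2871 and 1593 of all 6910 loci.

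**Figure D3:**
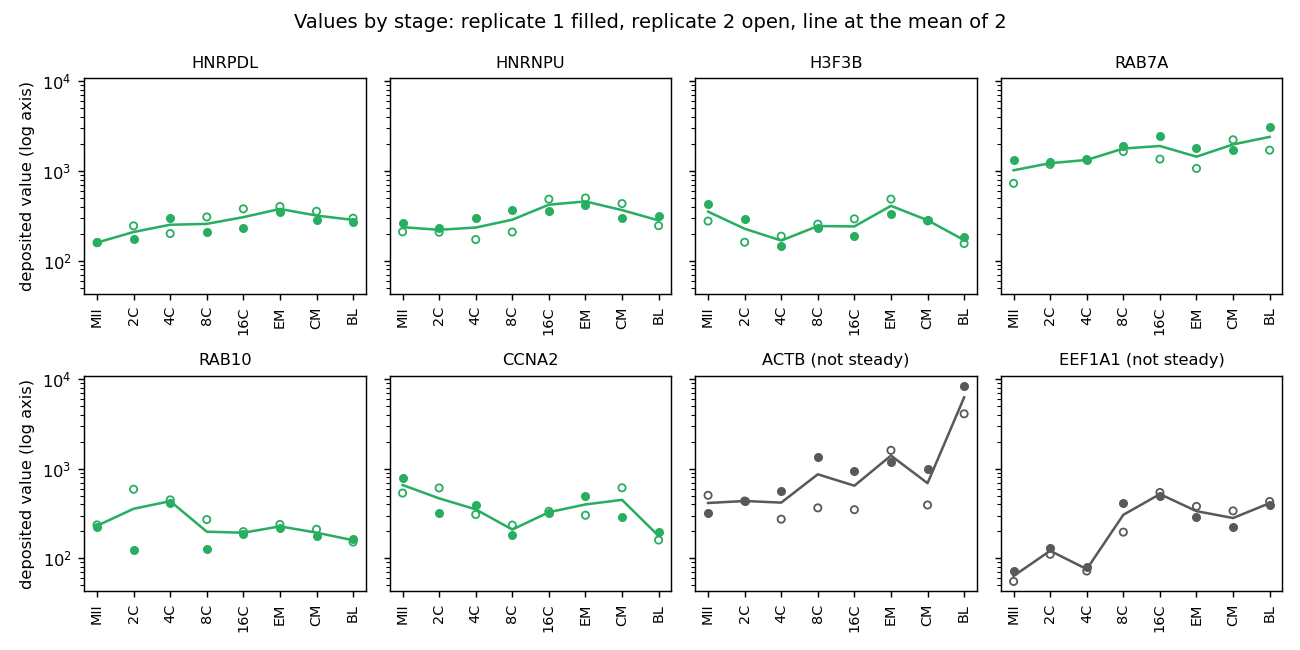
Deposited values (vertical axis, logarithmic and shared by all panels) along the 8 stages for 6 steady loci (green) and for ACTB and EEF1A1 (grey). Filled circles are replicate 1, open circles replicate 2 and lines join the means of 2; RAB10 shows its lowest and highest value at 2C, and ACTB spans 30.6-fold.

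ATP2A2, PTP4A2, WASF2 and LOC100336936 have separate roles at membranes and the actin cytoskeleton. ATP2A2, the pump that returns calcium to the endoplasmic reticulum, was highest at 4C (807 ± 118) and lowest in CM (305 ± 74.6). It ranged over 378 to 913 with a median of 643 before and 252 to 629 with a median of 380.3 after EGA. PTP4A2, a membrane-anchored protein phosphatase, had 223 to 468 with a median of 309.9 before and 210.2 to 691 with a median of 394 after EGA. WASF2, which turns on actin branching through the Arp2/3 complex, ranged over 369 to 976 with a median of 615 before and 426 to 1418 with a median of 914 after EGA, with both 8C embryos at the top (1418 and 1264). LOC100336936, listed by RefSeq as CDS1, a CDP-diacylglycerol synthase, ranged over 697 to 1376 with a median of 978 before and 327 to 1146 with a median of 699.9 after EGA, and 16C 2 was its lowest sample.

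BAG2, a co-chaperone that regulates Hsp70, and NID2, a nidogen of basement membranes, were both lower on average after EGA. BAG2 values were 738 and 776 in MII oocytes, 678 and 780.2 at 2C, 1247 and 1355 at 4C, 676 and 416 at 8C, 737 and 365 at 16C, 411 and 298 in EM, 349 and 560.1 in CM and 319 and 779.5 in BL. Both 4C embryos stood above all other samples, and EM 2 was lowest. NID2 measured 1949.5 and 2517 in MII oocytes, 1695 and 1336 at 2C, 1909 and 2534 at 4C, 1712 and 703 at 8C, 2113 and 927 at 16C, 2075 and 873 in EM, 718 and 1297 in CM and 883 and 1039 in BL. The samples of NID2 before EGA overlapped with 8C 1, 16C 1 and EM 1, whereas their replicate partners 8C 2, 16C 2 and EM 2 were among the low ones.

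LOC100850038, LOC100296593 and LOC100851729 likewise had no match in the gene table, so no function is given. LOC100296593 and LOC100850038 had the highest values of the steady loci. LOC100296593 measured 5016 and 10582 in MII oocytes, 5549.9 and 5326 at 2C, 4575 and 6211 at 4C, 14936 and 10184 at 8C, 13520.4 and 4303 at 16C, 9773 and 6436 in EM, 10729 and 13278 in CM and 7357 and 3473 in BL. High and low samples lay on both sides of EGA, from 14936 in 8C 1 to 3473 in BL 2. LOC100850038 ran from 4205 to 10953 with a median of 8285 before to 2872 to 9267 with a median of 4910.2 after EGA. LOC100851729 ranged over 379 to 1154 with a median of 635 before and 494 to 1868 with a median of 599 after EGA. Its 2 embryos at 8C measured 1868 and 494, so that 1 embryo set the upper end of its range.

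The steady loci did not share a common course along the stages. The highest stage mean fell in MII oocytes for 8 loci, at 4C for 5, at 8C and in BL for 4 each, in EM for 3, at 16C and in CM for 2 each and at 2C for none (0). The lowest stage mean fell in BL for 9 loci, at 2C and 4C for 5 each, in MII oocytes for 3, at 8C and in CM for 2 each and at 16C and in EM for 1 each. By sample, MII 2 held the highest value of 6 loci and BL 2 the lowest value of 6. The median deviation of the 28 loci from their own means ran from -0.45 on the log2 scale in BL 2 to 0.52 in MII 2. High values of single loci in MII 2 and low ones in BL 2 are to be read beside these shifts, whose part in them was not tested.

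**Figure D4:**
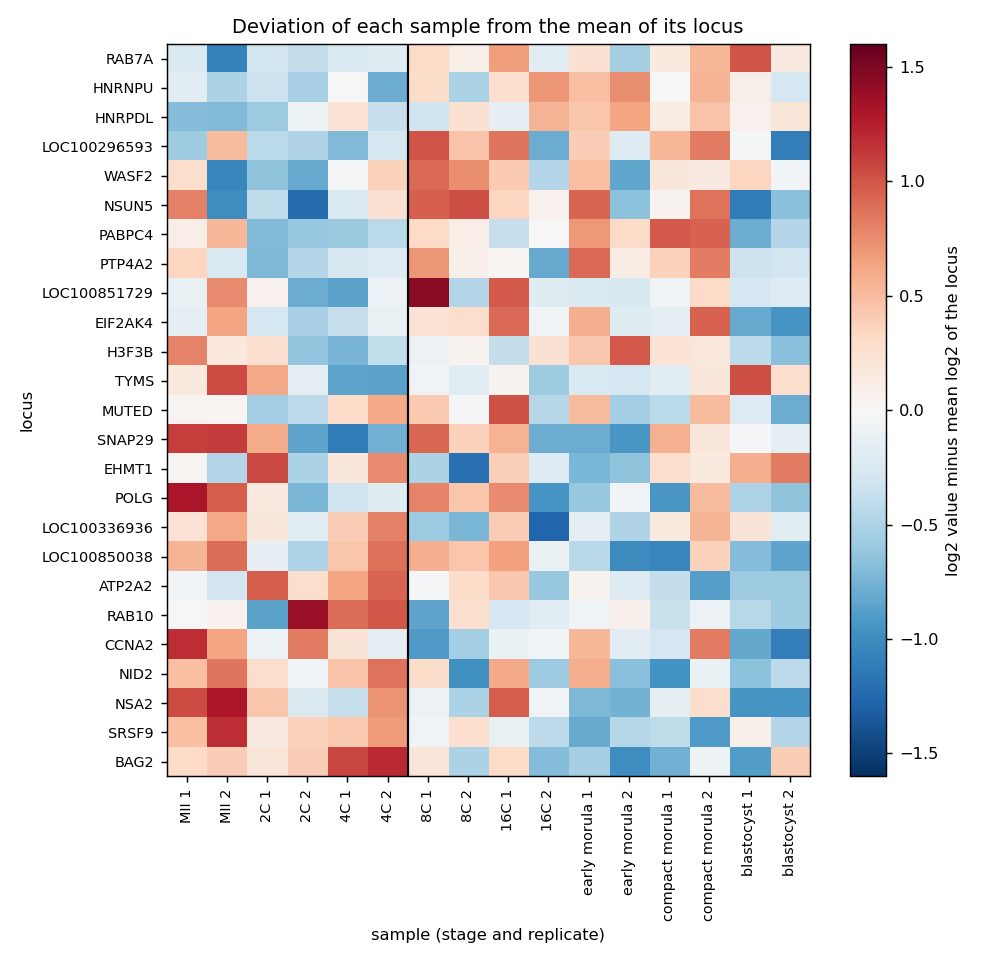
Deviation of each sample (columns, by stage and replicate) from the mean log2 value of 25 steady loci (lines), coloured from blue for lower to red for higher on a log2 scale, with lines ordered from the largest rise after EGA (RAB7A, 0.65) to the largest fall among those drawn (BAG2, -0.95). The vertical line marks EGA, and the patches of colour differ between replicates of 1 stage as well as between stages.

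The limit of 5 also bounds the spread between replicates and between stages, so both are given as values only. The largest difference between 2 samples of 1 stage was 1.34-fold for PABPC4 and 4.72-fold for RAB10, with a median of 2.17-fold, and it passed 2-fold for 19 of the 28 loci. Between the highest and the lowest stage mean the ratio was 1.92 to 4.34, with a median of 2.69.

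At EGA the mean log2 value of 14 steady loci was higher after and that of 14 lower, and the median difference was -0.01. None (0) differed by more than 2-fold and 7 differed by less than 1.2-fold. Upward differences were largest for RAB7A (0.65), HNRNPU (0.62), HNRPDL (0.59) and LOC100296593 (0.52), and, among the 25 described loci, downward ones for BAG2 (-0.95), SRSF9 (-0.87), NSA2 (-0.77) and NID2 (-0.77). Samples of the periods overlapped at all 28 loci. The periods did not overlap at 30% of the 6910 loci tested, but the limit on the ratio, set on the same samples, largely fixes an overlap, and nothing is read from the count. Over all loci, 66.8% of 6910 differed between the periods and 66.7% of 9670 across the 8 stages by limma at an adjusted p of 0.05, and these tests are not read for the 28 loci.

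Steadiness also depended on what the values were divided by. Size factors are meant to bring the typical locus to a like value in every sample, and the sums of the values over all loci still differed 3.44-fold between samples. After scaling to total reads (CPM, reads divided by the total of the sample and brought to a total of 1000000), the median difference of all 6910 loci between the periods moved from 0.23 to 0.67 on the log2 scale, and that of the 28 loci from -0.01 to 0.47. On the CPM scale 18 of the 28 loci were higher after EGA. The ratio on this scale lay between 2.83 (POLG) and 9.99 (RAB7A), and it exceeded 5 for 10 loci, among them RAB7A, NSUN5, HNRPDL, HNRNPU, WASF2, H3F3B, EHMT1, PTP4A2 and RAB10. The locus with the lowest ratio as deposited, HNRPDL, had a CPM ratio of 8.73, and of those 10 loci 7 had a higher mean after EGA.

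With TMM factors, another way to scale the reads, ratios ran from 2.93 to 6.14 and exceeded 5 for 7 of the 28 loci, among them LOC100296593, RAB10, NSA2, POLG, NSUN5 and CCNA2. Steady by the whole rule on all 3 scales were 11 loci. They were PABPC4, EIF2AK4, SRSF9, MUTED, SNAP29, NID2, ATP2A2, BAG2, LOC100336936, LOC100850038 and LOC100851729. On CPM values 39 loci met the rule, of which 16 were among the 28.

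**Figure D5:**
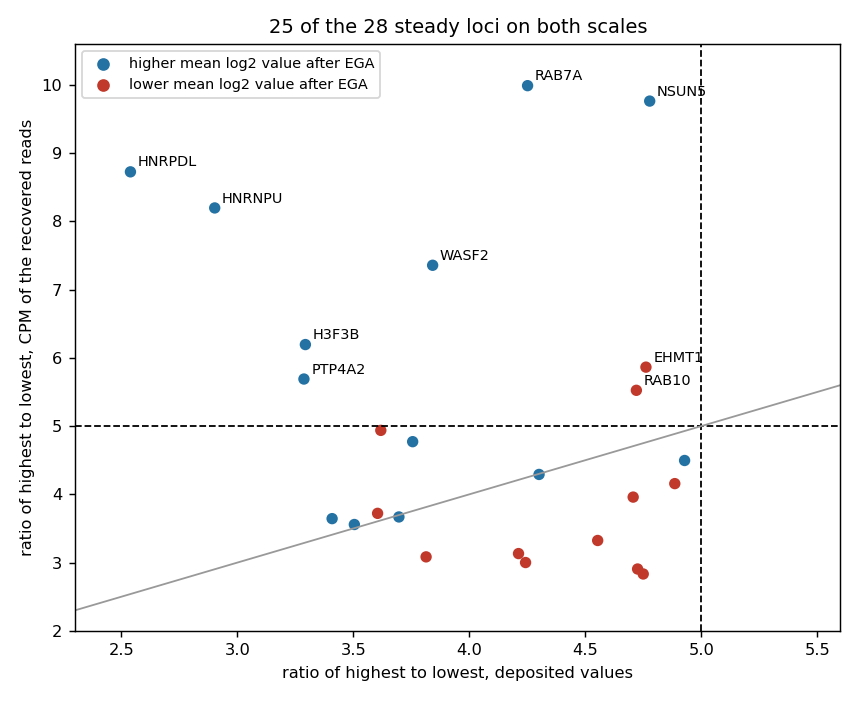
Ratio of the highest to the lowest value over 16 samples, as deposited (horizontal axis) and as CPM of the recovered reads (vertical axis), for 25 of the 28 steady loci, blue where the mean log2 value as deposited was higher after EGA and red where it was lower. Dashed lines mark 5 and the grey line equal ratios; the loci above 5 on the CPM axis are named, up to RAB7A at 9.99, and most of them are blue.

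A list of genes in common use for normalization was set beside the steady loci. Of 59 loci in this list of reference genes, 3 were at 100 or more in all samples and RAB7A was the only steady one, where 0.113% of all named loci and 14.1% of those at 100 or more were steady. The other 2 were EIF4A2, which ranged 6.06-fold (log2 difference after EGA 0.22, SE 0.43, limma adjusted p = 0.66), and ACTB, the cytoplasmic actin. ACTB was at 274 to 564 with a median of 436 before EGA and 349 to 8383 with a median of 1092 after, a 30.6-fold range with both blastocysts highest, and its log2 difference was 1.49 (SE 0.57, limma adjusted p = 0.025). EEF1A1, the elongation factor that brings aminoacyl-tRNA to the ribosome, ranged from 55.3 to 543 and did not overlap between the periods (log2 difference 2.08, SE 0.31, limma adjusted p = 5.24e-06). GAPDH was listed at 0 in all samples at 1 locus and at no more than 6.34 at the other. HPRT1, SDHA, TBP, GUSB, PGK1 and TUBB were listed at 0. Of the 59 loci 8 were at 0 in every sample, and since these include genes that every cell uses, a 0 in this table is not read as low expression.

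Of the 44 reference loci tested that were not steady ones, 29 rose and 2 (UBE2D2 and LDHA) fell after EGA by limma, where 36.9% and 29.9% of all loci did, and UBE2D2 did not pass when values were scaled to total reads (adjusted p = 0.099). Narrow ranges at lower levels were seen for HNRNPC (46.9 to 144, 3.08-fold) and KDM1A (41.6 to 186, 4.46-fold), and the minimum of 100 kept both out. HNRNPC differed between the periods by -0.18 on the log2 scale (SE 0.30, limma adjusted p = 0.61), and by 0.30 after scaling to total reads (limma adjusted p = 0.47).

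Cytosolic ribosomal proteins, respiratory chain subunits, mitochondrial ribosomal proteins and proteasome subunits gave no steady locus, but few of their loci were at 100 or more throughout and 0.113% of all named loci were steady, so nothing is read from this. Cytosolic ribosomal proteins had 89 loci, 2 of them at 100 or more throughout and none (0) steady, and 75 of the 81 tested rose while 2 fell, beside 36.9% higher and 29.9% lower of all 6910 loci. Respiratory chain subunits had 101 loci and 0 steady (62 of 74 tested rose and 3 fell), mitochondrial ribosomal proteins 77 and 0 (42 of 60 rose and 2 fell) and proteasome subunits 50 and 0 (25 of 38 rose and 4 fell). Rises outnumbered falls in all 4 families on total reads as well, where they also did so over all loci (2871 against 1593). The median change of the tested ribosomal protein loci was 3.79 on the log2 scale, beside 0.23 for all 6910 loci.

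For 8 of the 28 loci another locus with the same gene name was above 0 in all samples: ATP2A2, SNAP29, PTP4A2, RAB7A, LOC100336936, EHMT1, WASF2 and MUTED. The second locus had a ratio of 3.70 for RAB7A, 4.56 for PTP4A2, 4.95 for LOC100336936, 5.13 for SNAP29, 5.91 for MUTED, 7.36 for EHMT1 and 9.20 for ATP2A2. The second locus of EHMT1 held 9 reads in its lowest sample (95% counting interval of the ratio 3.72 to 16.6), and that of WASF2 held 1 read, so no ratio is given for it. The lowest samples of the second loci of MUTED, RAB7A and PTP4A2 held 12, 22 and 22 reads, so these ratios are loose as well. The second loci of RAB7A (25.2 to 93.4) and PTP4A2 (20.3 to 92.5) stayed below 100 in every sample. The table gives neither position nor strand, so which locus holds the annotated strand of the gene could not be told. The second locus of ATP2A2 was the more abundant, with a mean of 1633 against 500 at the steady locus. When the loci of a name were summed, ATP2A2 had a ratio of 6.37 and left the group, the other 27 loci stayed, and NUP107, PRR14L and THOC1 entered it.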

How the data were processed

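RNA-Seq was made from single in vivo oocytes and embryos of cattle, 2 at each of 8 stages. The authors deposited a signal for each locus, namely the number of mapped, trimmed reads over a size factor of that sample. The labels name cutadapt, FastQC, TopHat, Cufflinks and HTSeq, and the genome build is not given in the sources used here. In each sample 100% of the values were whole multiples of 1 step within 0.01, so reads were recovered by dividing by it. Depth was 607672 to 3379426 reads, and 3 reads, the limit that a count of 0 allows, are 0.888 to 4.94 CPM. Intervals and limits hold for counting error alone, because copies made in the amplification cannot be recognised.

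The 28 loci were selected on minimum and ratio, leaving out 2573 loci without a gene name. The members and gene lists were chosen with earlier results of these data known. Genes named are the 12 lowest ratios, the 8 highest means, the 4 on either side of the limit, the 4 largest rises and falls at EGA, and steady genes of the lists. Of the 28 loci, 3 enter counts and medians and are not reported here by name. The remaining loci, and loci that enter when names are summed, were named after their values were seen. Names were matched to a RefSeq gene table of assembly ARS-UCD2.0, in which 24 of 28 were found, 3 of them under another symbol.

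Stages and periods were compared with limma 3.58.1 under R 4.3.3, with a trend, on log2(value + 1), so folds of low loci are understated. The comparison of periods had no term for stage, and it took the 6 and 10 samples as independent although they are nested in stages. Loci were kept by edgeR's filterByExpr, and p-values were adjusted by Benjamini-Hochberg over all kept loci at 0.05. Where nothing states separate cows, p-values measure the spread between these samples. Tests were run on simulated counts in which 200 of 6910 loci changed. For the periods 89.5% of the changed loci were recovered with 5 false calls, and for the stages 99.5% with 17. In the data 66.8% of the 6910 loci were called between the periods, so these rates do not carry over to the data. Other steps used Python 3.11.15, numpy 2.4.6, scipy 1.17.1 and pandas 2.3.3. Alternatives were other scales, limits, pseudocounts and filters, edgeR 4.0.16 and DESeq2 1.42.0 on the recovered reads, a replicate block and each replicate left out. Promoter and protein features were not analysed here. Replicate numbers were not taken as pairs, since same-numbered samples are different oocytes or embryos.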

Additional observations from a re-analysis of the deposited data

Results flagged for a closer look

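In the 25 steady loci described by name, the samples before EGA (6) and after EGA (10) were examined for a highest or lowest value far from its neighbour by Dixon's criterion, 50 groups in all. Of these, 6 passed. Chance flags about 1 in 20 groups of like samples, but these groups mix stages and their range is limited by the rule that chose the loci, so that rate does not apply and the values are a description. MII 2 was the distant sample in 3 of them. EIF2AK4 was at 2065 in MII 2, with the next highest sample before EGA at 1224. LOC100296593 was at 10582 in MII 2, with the next at 6211. RAB7A was at 729 in MII 2, below the next lowest sample before EGA at 1183. After EGA, H3F3B was at 486 in EM 2 (next 332), NSA2 at 925 in 16C 1 (next 574) and TYMS at 412 in BL 1 (next 242). The cause was not tested for any of them.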

How the results depend on the processing

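The number of steady loci followed its limits. It was 71 with a minimum of 50 and 18 with a minimum of 200, 13 with a ratio of at most 4 and 3 with at most 3, and 105 when stage means replaced single samples. Chosen after seeing the data, no minimum gave 258 loci, the CPM ratio with the deposited minimum 42 (18 shared with the 28), and summed loci of a name 30 (27 shared). On CPM it was 39 (16 shared) and on TMM values 26 (21 shared). Without 1 replicate it ranged from 28 to 37; leaving out a sample can only add loci under this rule.

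Calls at EGA numbered 4619, and 7075 without a filter on low values, with 3703 lower after against 2069, from 18318 in place of 6910 loci tested. The other alternatives left both counts within 1.5 times. Without 1 replicate the calls ranged from 4280 to 4636, with 2310 to 2635 higher and 1970 to 2104 lower, and stage calls from 5783 to 7375. For reference genes the calls ranged from 28 to 31, with 26 to 29 higher and 2 to 3 lower. On total reads 1 reference gene was lower, since UBE2D2 missed the threshold.

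With the replicate number as a block, 4579 loci were called at EGA (2523 higher, 2056 lower), 6381 by stage and 31 reference genes. Replicate differences of stages correlated between -0.27 and 0.12 (1 of 28 pairs over 0.1), so the numbers share no more than a label.

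With 2 samples a stage and 70 reads at the least covered point, ranges near the ratio of 5 are not resolved.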

Other observations

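Among the 2573 loci without a gene name, 3 met the same minimum and ratio. XLOC_041360 ranged from 765 to 3132 (4.10-fold), XLOC_039271 from 1277 to 5524 (4.33-fold) and XLOC_007331 from 112 to 525 (4.70-fold). Their positions are not given in the table, so they are not assigned to genes.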
